A study of Mus musculus with 16 samples.

Results

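The loss of PKBα was examined in ISP8 thymocytes, the immature CD8 single positive cells that stand between the double negative and the double positive stage of T cell development. Of the 16 arrays of the series, the 8 made from ISP8 cells were used, chosen by the cell type given in their labels: 4 from PKBα-/- mice and 4 from PKBα+/+ (wild-type) littermates. The mice carried a C57Bl/6 backcross background and formed 4 littermate pairs, each of one sex and age. Pair 1 was female and 3 weeks old, pair 2 was male and 3 weeks old, pair 3 was male and 2 weeks old, and pair 4 was female and 5 weeks old. The PKBα gene is deleted in every cell of these mice from the germline on, so stromal and other blood cells of the thymus lacked it as well. Cells were sorted with antibodies to CD3, CD4 and CD8, in equal number within a pair, and the small amount of RNA was amplified in 2 cycles before hybridization to Affymetrix mouse genome arrays. The question of the comparison is which transcripts of ISP8 cells depend on PKBα.

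PKBα is a serine/threonine kinase that acts below PI3K: it is brought to the membrane by the lipid that PI3K makes, is activated there and phosphorylates targets that govern growth, glucose use, survival and the FOXO transcription factors. In thymocytes this pathway is engaged by the pre-TCR, by Notch and by cytokine receptors when cells that have rearranged a TCRβ chain leave the DN3 stage, divide rapidly and pass through the ISP8 stage. ISP8 cells have switched on CD8 but not yet CD4, have shut off much of the DN3 program and are among the fastest dividing cells of the thymus.

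The deposited values are GC-RMA intensities on a linear scale for 45101 probe sets, and their median per ISP8 array was 55.1 to 60.4. Between any pair of ISP8 arrays, r across probe sets (no independent replicates) was 0.914 to 0.931. In the sorted cells, Cd8a read 5750.2 to 6124 in wild-type ISP8 cells against 156 to 282 in wild-type DN3 cells of the same mice, and Cd8b1 read 1738 to 2603 against 115 to 308. Il2ra, which encodes the DN3 surface marker CD25, read 84.8 to 251 against 6899 to 9316, and Cd4 stayed at 30.6 to 95.1 in wild-type ISP8 cells. The transcript of Xist matched the labelled sex in 8 of 8 ISP8 arrays. In bulk samples, fewer cells of a type and less RNA per cell cannot be told apart.

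Each PKBα-/- mouse was set against its littermate on the log2 scale with limma. This was done for 34016 probe sets, those for which 3 or more pairs held an animal with a value over 20. At a Benjamini-Hochberg adjusted p under 0.05, 5 of them passed (0.0147%), 1 higher (0.00294%) and 4 lower (0.0118%) in PKBα-/- cells. Among 14684 genes with 1 symbol, taken at their representative probe set, 3 passed (0.0204%). At an unadjusted p under 0.05 stood 2067 probe sets, 6.08% of those tested (3.46% higher and 2.62% lower), and 14.7% moved in the same direction in 4 of 4 pairs. The median log2 difference over the 14684 genes, each represented by its probe set with the highest mean, was 0.005, and 49.2% of them were below 0. Fold values and differences below are PKBα-/- over wild-type, and values are listed from pair 1 to pair 4, wild-type first.

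Akt1, the gene of PKBα, was nearly absent from the PKBα-/- arrays. Its brightest probe set read 1628, 2069, 2211 and 1969 in wild-type and 5.02, 6.81, 4.87 and 6.41 in PKBα-/- cells. The groups were separated in every pair, and the knockout values lay in the range of background. The log2 difference was -8.42 (standard error 0.27, limma adjusted p = 4.6e-09), whose size is set by that background. A further Akt1 probe set read 258, 204, 331 and 309 in wild-type and 2.96, 23.4, 3.12 and 3.04 in PKBα-/- cells and fell by 5.74 (standard error 0.64, limma adjusted p = 0.0107). The PKBα-/- animal of pair 2 was the highest of its group at this probe set, still far below every wild-type value. This second call was lost in limma without pair 1 (adjusted p = 0.230), without pair 3 (0.0561), with a filter at 100 (0.106) and without the mean-dependent prior (0.914). The remaining one above the filter kept more signal, with 190.3, 108, 115 and 192 in wild-type and 87.9, 10.3, 32.1 and 71.8 in PKBα-/- cells, lower in 4 of 4 pairs without passing (log2 difference -1.94, limma adjusted p = 0.308). Akt2, which encodes the related kinase PKBβ, was read by 3 probe sets with log2 differences of 0.20, -0.17 and 0.10, none of which passed (limma adjusted p = 0.837, 0.93 and 0.944). The brightest of them read 1013 ± 173 in wild-type against 1161 ± 177 in PKBα-/- samples (SD, n = 4), with overlapping groups.

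Uri1, which encodes a prefoldin-like protein of RNA polymerase assembly and nutrient signaling, fell in PKBα-/- ISP8 cells. It read 8034, 6189.8, 6319 and 5582 in wild-type and 5004, 4048, 3824 and 4019 in PKBα-/- cells, so that the highest knockout value lay below the lowest wild-type value. The log2 difference was -0.62 (standard error 0.08, limma adjusted p = 0.018). Its other 2 probe sets gave -0.21 and -0.11 and did not pass. Nrip2, whose product binds nuclear receptors, was lower at one probe set, which read 9842, 21048, 18651 and 7194 in wild-type and 474, 10062, 1241 and 137 in PKBα-/- cells. All 4 pairs were lower, but the knockout male of pair 2 exceeded the wild-type values of pairs 1 and 4, so the groups overlapped. On the log2 scale the difference was -3.77 (standard error 0.48, limma adjusted p = 0.0241), and another probe set of the gene read 0.48 in the opposite direction. A single probe set rose, one that the annotation assigns to both Slc28a2 and Slc28a2b, genes of sodium-coupled nucleoside uptake, so the transcript cannot be told apart between them. It read 344, 269, 320.3 and 541 in wild-type and 981, 512, 693 and 1020.3 in PKBα-/- cells. Each knockout stood above its littermate, while the wild-type animal of pair 4 stood above the knockout animal of pair 2. Over the pairs its log2 values rose by 1.12 (standard error 0.15, limma adjusted p = 0.0327). Without pair 1 or without pair 3, the probe sets of Uri1 (adjusted p = 0.256 and 0.144), Nrip2 (0.559 and 0.121) and Slc28a2 (0.559 and 0.171) no longer passed in limma. These 3 were also lost with a filter at 100 and without the mean-dependent prior, where only the brightest Akt1 probe set passed. Without the pair block only 2 probe sets of Akt1 passed.

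**Figure D1:**
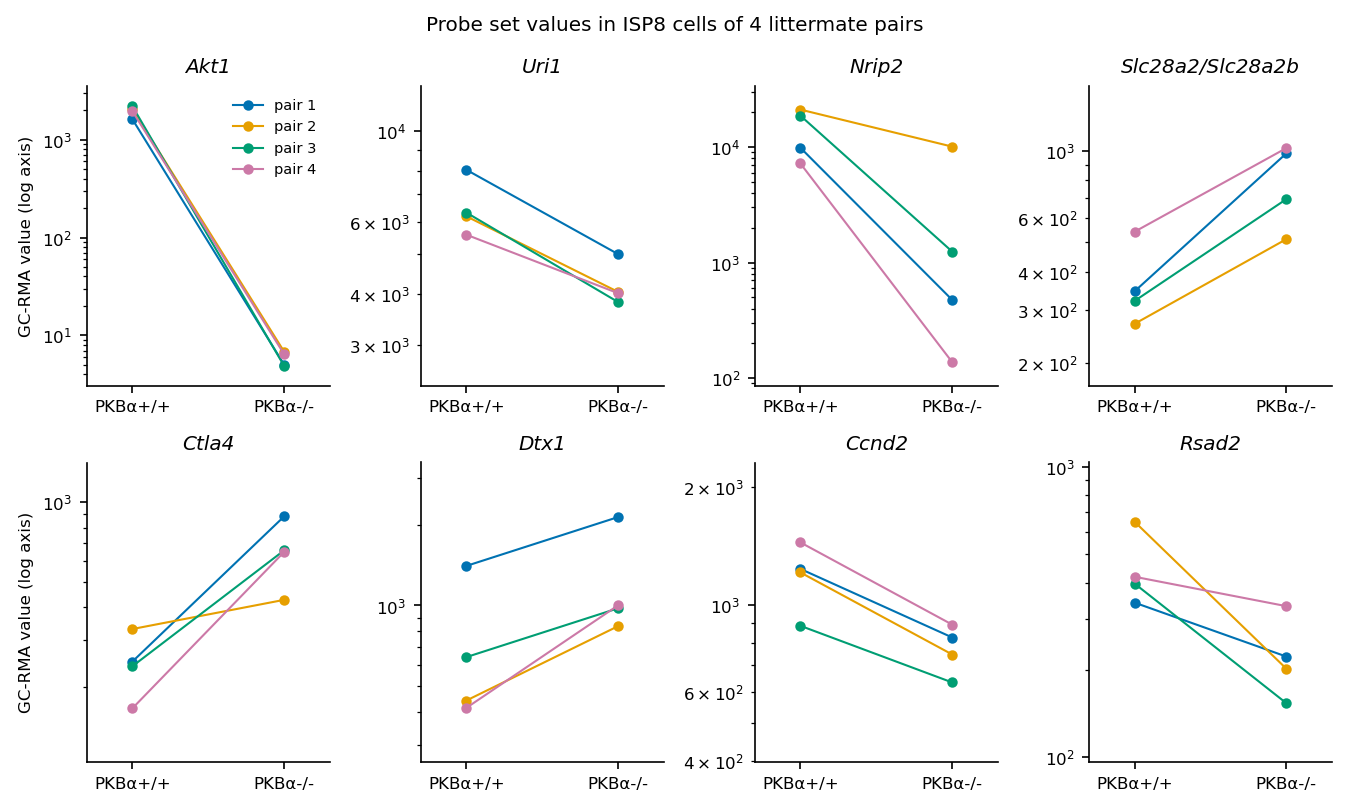
Deposited GC-RMA values (log axis) of 8 genes in the 4 wild-type and 4 PKBα-/- ISP8 samples, one panel per gene, with a line joining the littermates of each pair. Akt1 drops to background in every pair, Uri1, Nrip2, Ccnd2 and Rsad2 slope down in each pair, and Slc28a2, Ctla4 and Dtx1 slope up in each pair, with the starting levels of the pairs often apart.

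In DN3 cells of the same mice, 13 of 33962 probe sets passed (0.0383%). Of the genes called in ISP8 cells, Akt1 gave a log2 difference of -8.08 there. Uri1 read -0.01, Nrip2 0.71 and the Slc28a2 probe set -0.05 on the same scale. The difference of the genotype effect between ISP8 and DN3 cells was itself tested in 36835 probe sets with limma, and 0 passed (0.0%, smallest adjusted p = 0.961), with 1750 (4.75%) at an unadjusted p under 0.05. For Uri1 that difference was -0.61 (adjusted p = 0.961) and for the Slc28a2 probe set 1.17 (adjusted p = 0.961), so none of these effects was shown to be particular to the ISP8 stage.

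Behind the called probe sets, 9 further genes lower and 12 higher in 4 of 4 pairs had the smallest p values, and none of them passed. Each was taken at its probe set with the smallest p among those that kept their direction, which need not be its brightest. On the higher side stood 2 genes known for restraining or shaping T cell signals, Dtx1 and Ctla4. Dtx1, which encodes Deltex, a ubiquitin ligase and a classical Notch target, read 1406, 441, 641 and 414 in wild-type and 2143, 837, 976 and 1002 in PKBα-/- cells. Each knockout exceeded its littermate although the groups overlapped, with the females of pair 1 high in both genotypes. The log2 difference was 0.85 (standard error 0.14, limma adjusted p = 0.153), and its other probe set read 0.24. Ctla4, an inhibitory receptor that competes with CD28, read 249, 331, 239 and 166 in wild-type and 884, 427, 657 and 648 in PKBα-/- cells. Every knockout value lay above every wild-type value, with the narrowest gap in pair 2. Its log2 difference of 1.41 (standard error 0.23) missed the threshold with limma (adjusted p = 0.158), passed without pair 2 (adjusted p = 0.00112) and passed in 1 limma fit of all 16 arrays (adjusted p = 0.0146). Both genes are DN3-stage transcripts, with wild-type DN3 levels of 5031 ± 999 and 1845 ± 397 (SD, n = 4), so the knockout ISP8 values remained below those of DN3 cells. In PKBα-/- DN3 cells Ctla4 rose by 0.62 (limma adjusted p = 0.0196) and Dtx1 read 0.25 (adjusted p = 0.972).

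The other genes on the higher side included Pik3r5, a regulatory subunit of the PI3K that G protein-coupled receptors engage, and Dgkd, a kinase that removes the second messenger diacylglycerol. Pik3r5 read 1496, 1309, 1073 and 1658 in wild-type and 2348, 1719, 1537 and 2164 in PKBα-/- cells, a log2 difference of 0.49 (limma adjusted p = 0.308). Dgkd read 906, 799.8, 928 and 1154 against 1409, 1254, 1367 and 1439, with no overlap, a log2 difference of 0.54 (limma adjusted p = 0.308). The remaining ones were Agfg1, Bambi-ps1, Hnrnpk, Hsd17b11, Nsmaf, Nudt21, Sf3b2 and Tubb2a, at log2 differences of 0.43 to 1.09. On the lower side, Rtn4, a reticulon of the endoplasmic reticulum, read 1755, 1993, 1731 and 1264 in wild-type and 947, 1271, 1137 and 830.4 in PKBα-/- cells, lower in every pair (log2 difference -0.69, limma adjusted p = 0.111). Ccr9, the receptor for the thymic chemokine CCL25, read 4237, 4516, 2936 and 5345 against 2724, 3354, 2348 and 3689.7, with the groups overlapping and pair 3 low in both genotypes. Its log2 difference was -0.48 (limma adjusted p = 0.197), beside -0.62 in DN3 cells (adjusted p = 0.076). Gja1, which encodes the gap junction protein connexin 43, read 594, 665, 694 and 501 against 415, 402, 424 and 250.1, without overlap (log2 difference -0.74, adjusted p = 0.296 in limma). It is also one of the stromal markers counted below. The others were Bex1, Ccnd2, Qars, Rps10, Sf3b1 and Srsf2, at -0.83 to -0.42. Of the 12 genes per direction counted with the called ones, the probe set of 3 higher and 6 lower ones may bind several transcripts. Of their further probe sets, 17 of 22 and 28 of 38 pointed the same way, 4 and 9 of them at an unadjusted p under 0.05. For Qars this held for 0 of 3 further probe sets, for Sf3b1 and Hnrnpk for 1 of 3 each, and for Ccnd2 for 6 of 6.

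**Figure D2:**
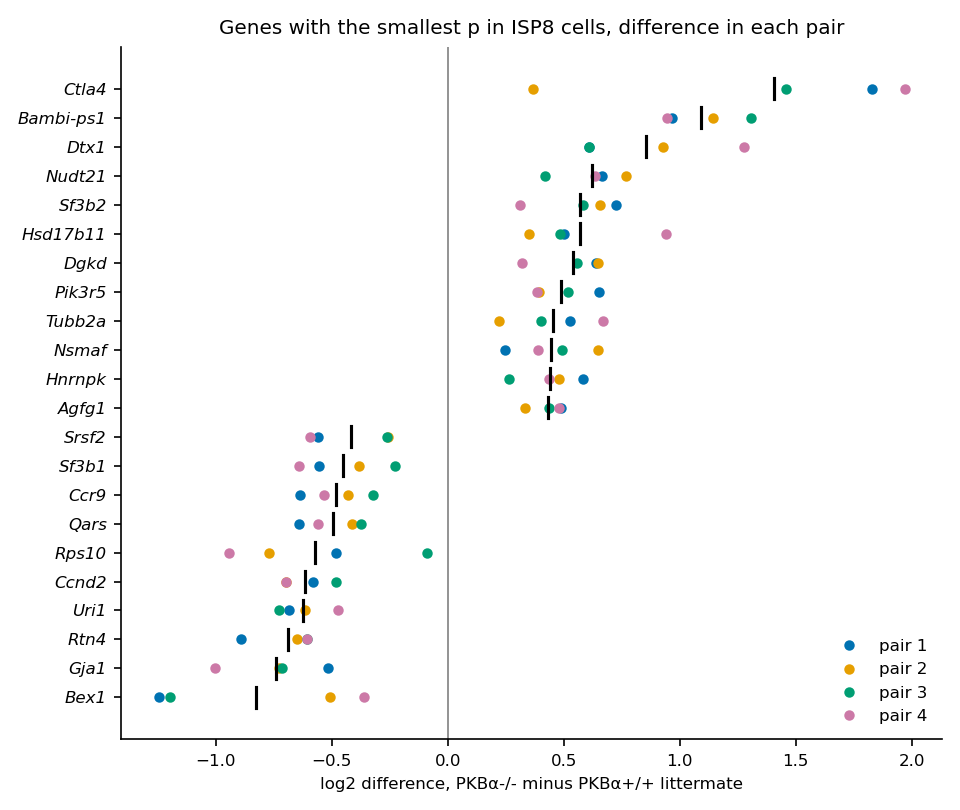
Difference PKBα-/- minus wild-type on the log2 scale in each littermate pair (points) and their mean (black bar) for 22 genes with the smallest p values that moved the same way in 4 of 4 pairs, Akt1 and Nrip2 left out for their scale. All 4 points of a gene lie on one side of 0, and Ctla4 and Bambi-ps1 show the largest means, 1.41 and 1.09.

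Members of 33 gene lists (22 of pathways or stages, 10 of cell type markers, and Akt1 alone) were then counted. Over all genes, 6.48% stood at an unadjusted p under 0.05, 3.36% higher and 3.12% lower. In 4 of 4 pairs 7.99% were higher and 7.68% lower, and the groups did not overlap for 2.98%. No list member other than Akt1 passed the adjusted limma test, and the values that follow describe the libraries. Of 20 list counts of 3 or more at an unadjusted p under 0.05, 11 moved by over 1.5 times when a pair was left out, and those that do so are given with the pair.

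The signaling lists had medians close to 0. Of the 31 members of the list of PI3K, PKB and mTOR components, 3 were higher and 2 lower at an unadjusted p under 0.05, and the median log2 difference was 0.03. Besides Pik3r5, the higher ones were Rptor and Rictor, which encode the defining subunits of the mTOR complexes. Rptor read 773 ± 121 in wild-type against 1003 ± 70.9 in PKBα-/- samples (SD, n = 4), without overlap, and Rictor 1326 ± 556 in wild-type against 1664 ± 229 in PKBα-/- samples (log2 differences 0.39 and 0.46, limma adjusted p = 0.753 and 0.817). The lower one beside Akt1 was Eif4ebp1, the translation repressor that mTOR inactivates (-0.37, adjusted p = 0.803 in limma). Among 23 FOXO factors and targets, 5 were higher (3 without pair 4) and 3 lower, with a median of 0.08. FOXO factors are held out of the nucleus by PKB. Their target Irs2, an adaptor of insulin and cytokine receptors, read 79.6, 80.6, 79.7 and 84.5 in wild-type and 95.5, 175, 183 and 173 in PKBα-/- cells. The wild-type values were nearly alike and the knockout animal of pair 1 stayed close to them (log2 difference 0.90, limma adjusted p = 0.722). Trib2 (log2 difference 0.51), Rag1 (0.23) and Ccng2 (0.21) also read higher. Others known as FOXO targets read lower: the IL-7 receptor gene Il7r read 850.5, 1257, 766 and 812 in wild-type and 649.6, 748, 638 and 659.8 in PKBα-/- cells, without overlap (-0.42, limma adjusted p = 0.722). The death gene Bcl2l11 read -0.24 and Fasl, near background, -1.82 on the log2 scale. The list's members thus stood on both sides of 0.

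Of 27 genes of the pre-TCR complex and its proximal signaling, 2 were higher and 0 lower at an unadjusted p under 0.05, while 8 were higher and 1 lower in 4 of 4 pairs (median 0.09). The higher ones were Prkcq, a diacylglycerol-activated kinase (0.48, limma adjusted p = 0.667), and Rasgrp1, which activates Ras below the TCR (0.26, adjusted p = 0.753 in limma). Of 20 genes known to be induced by the pre-TCR, 1 was higher, Ets2 (0.29), and 2 were lower, Ccr9 and the early response gene Egr2 (-0.65, limma adjusted p = 0.816). Inhibitors of T cell activation had 6 of 32 members higher and 2 lower, with a median of 0.09. The higher ones numbered 3 without pair 1 and 3 without the pair block. With Ctla4 stood Dgka, a further diacylglycerol kinase, at 1364 ± 266 in wild-type against 1812 ± 417 in PKBα-/- samples (SD, n = 4), a log2 difference of 0.40 in 4 of 4 pairs (limma adjusted p = 0.592), the surface protein gene Igsf3 (0.56 and 0.43 at separate probe sets) and the ubiquitin ligase gene Cbl (0.26). Socs3, a brake on cytokine receptors, read 191, 111, 97.6 and 135 in wild-type and 188, 169, 162 and 244 in PKBα-/- cells, higher in 3 of 4 pairs (0.54, limma adjusted p = 0.803). The tyrosine phosphatase gene Ptpn2 read -0.43 and Cish, a STAT5 target, -0.84 on the log2 scale, both lower in 4 of 4 pairs. The Ptpn2 value leaned on the knockout of pair 4, which stood apart at 3731 (7544 to 8078 in the others), and was -0.23 without that pair. The Notch pathway was divided, with 3 of 32 members higher and 2 lower (median -0.03). Next to Dtx1 it held Notch3, whose brighter probe set read 1451, 972, 1317 and 752 against 2089, 1377, 1322 and 1008, a log2 difference of 0.36 (limma adjusted p = 0.753), while Notch2 read -0.24. Cd53, a tetraspanin of leukocytes, read 348, 475, 163 and 567 in wild-type and 295, 281, 158 and 415 in PKBα-/- cells, lower in 4 of 4 pairs with pair 3 nearly level (-0.37, limma adjusted p = 0.818). In DN3 cells it read 0.30, higher in 4 of 4 pairs (limma adjusted p = 0.903).

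Interferon-inducible genes read lower as a group in PKBα-/- ISP8 cells, although none of them passed on its own. The study had already reported such genes as lowered in these samples, and the lists were chosen with earlier results of these data known. The direction of the group is therefore not independent evidence. Type I interferons act through a receptor that activates STAT proteins, and these bind with IRF9 to interferon-stimulated response elements in the promoters of antiviral genes. Of 50 type I interferon-inducible genes, 36 read lower, 13 were lower and 1 higher at an unadjusted p under 0.05, and 14 were lower and 1 higher in 4 of 4 pairs. The median log2 difference of the list was -0.18, against 0.005 over all genes, and in pairs 1 to 4 it was -0.26, -0.38, -0.28 and -0.05. It was -0.22 in DN3 cells of the same mice. Without pairs 1, 2, 3 and 4 in turn, 8, 8, 7 and 15 members were lower at an unadjusted p under 0.05.

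Rsad2, which encodes the antiviral protein viperin, led the list by p. It read 341, 649, 397 and 419 in wild-type and 222, 202, 153 and 332 in PKBα-/- cells. All knockout values lay below all wild-type values, and the gap was widest in pair 2 and narrowest in pair 4. The log2 difference was -1.0 (standard error 0.22, limma adjusted p = 0.42), beside -1.54 in DN3 cells (adjusted p = 0.000539). Rtp4, a chaperone-like interferon-induced gene, read 1534, 1608, 1223 and 714 against 849, 635, 516 and 769. Pairs 1 to 3 were lower by more than the wild-type values differed among themselves in these pairs, and pair 4 was slightly higher. This gave a log2 difference of -0.83 (limma adjusted p = 0.502), or -1.15 without pair 4, which passed (adjusted p = 0.013). Trim30a, an interferon-induced ubiquitin ligase gene, read 916, 1322, 849 and 1366 in wild-type and 678, 758, 656 and 971 in PKBα-/- cells, a log2 difference of -0.53 (limma adjusted p = 0.479) that its second probe set shared (-0.56). Ifi35 read 3578, 3455, 2379.7 and 3583 against 2095, 2477, 2169 and 2972, lower in each pair and least so in pair 3 (-0.41, adjusted p = 0.57 in limma). Against these stood Ifit2, an RNA-binding interferon-induced protein gene, at 2081, 2036, 2044 and 2244 against 2483, 2436, 2483 and 2258, higher in 4 of 4 pairs without overlap (0.20, limma adjusted p = 0.817). Ifit1, of the same family and chosen after its values were seen, read 176 ± 75.9 in wild-type against 94.9 ± 32.0 in PKBα-/- samples (SD, n = 4), lower in 4 of 4 pairs (-0.88, limma adjusted p = 0.777), and fell by 1.32 in DN3 cells (adjusted p = 0.00224). The ISP8 and DN3 effects were not shown to differ for Rsad2 (0.54, adjusted p = 0.961 in limma).

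The response element is known as a repeat of GAAA. It was searched here as GAAA, any 2 bases, GAAA on both strands of the 250 bases before each start in RefSeq (GRCm38.p6). It was found for 936 of 27025 genes (3.46%) and for 13 of 41 type I interferon-inducible genes with a window (31.7%), and such a match is a description of letters and not of binding. The windows of Rsad2, Trim30a and Ifit1 are shown because these genes read lower and hold the repeat, whose letters are in capitals (TTTC, any 2 bases, TTTC is the same repeat on the other strand). Each is written in the direction of transcription and ends at the base before the start. The Rsad2 window (minus strand, chr12:26456453-26456702) has it 120 bases before the start, the Trim30a window (minus strand, chr7:104465194-104465443, 1 of 2 starts) 36 bases before, and the Ifit1 window (plus strand, chr19:34640639-34640888) 104 and 85 bases before.
Rsad2: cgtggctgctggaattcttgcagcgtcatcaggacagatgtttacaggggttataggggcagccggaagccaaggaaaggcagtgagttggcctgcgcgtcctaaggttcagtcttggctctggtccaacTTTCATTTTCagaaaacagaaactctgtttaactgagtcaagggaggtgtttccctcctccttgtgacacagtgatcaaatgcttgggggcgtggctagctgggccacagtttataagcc
Trim30a: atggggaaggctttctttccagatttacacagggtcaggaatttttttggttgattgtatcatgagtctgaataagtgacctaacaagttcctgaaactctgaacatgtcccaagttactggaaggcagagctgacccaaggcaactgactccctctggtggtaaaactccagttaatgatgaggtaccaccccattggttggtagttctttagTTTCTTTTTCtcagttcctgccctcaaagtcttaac
Ifit1: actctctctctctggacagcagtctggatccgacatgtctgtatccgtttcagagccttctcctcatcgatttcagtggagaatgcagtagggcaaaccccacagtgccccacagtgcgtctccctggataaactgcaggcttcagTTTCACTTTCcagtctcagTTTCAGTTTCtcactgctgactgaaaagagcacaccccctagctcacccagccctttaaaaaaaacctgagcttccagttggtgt

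Of the 12 tested type I genes whose window holds the repeat, 9 read lower (median log2 difference -0.31), and of 27 whose window does not, 19 did (median -0.14).

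**Figure D3:**
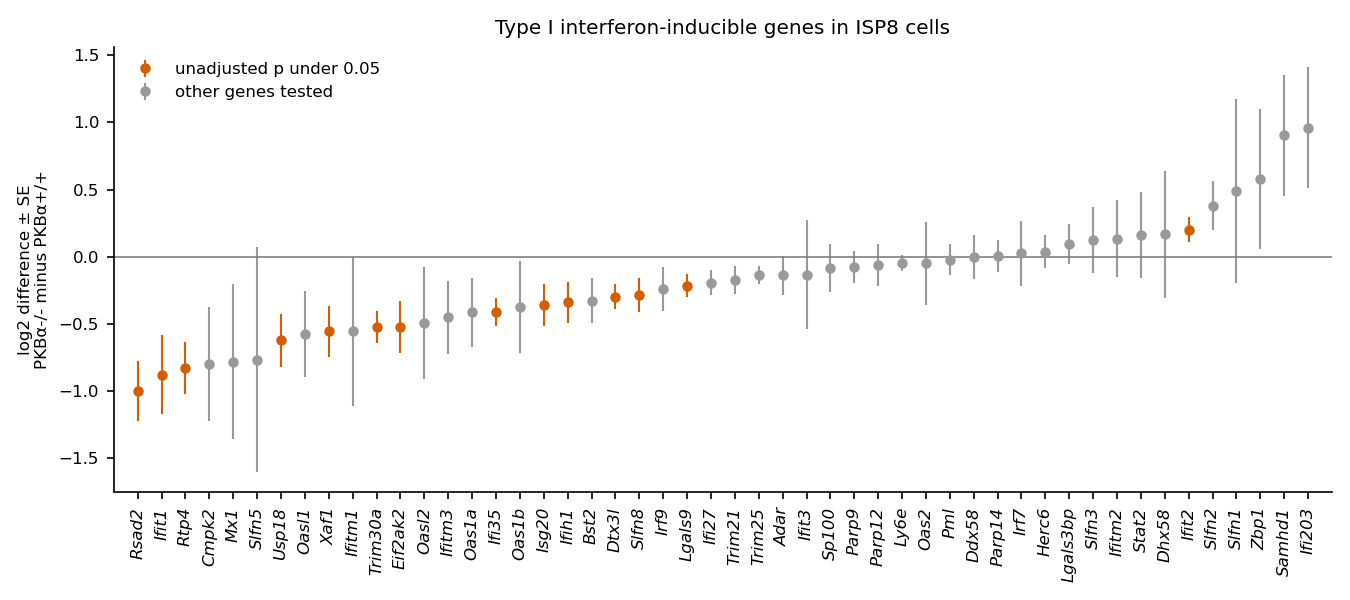
Difference PKBα-/- minus wild-type on the log2 scale with its standard error for the 50 type I interferon-inducible genes tested in ISP8 cells, ordered by size, with those at an unadjusted p under 0.05 in orange. The orange points lie below 0 for 13 genes and above 0 for 1, Ifit2, and the list's median is -0.18.

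Genes of the interferon-γ response and of antigen presentation had 4 of 30 members lower and 0 higher at an unadjusted p under 0.05, 7 lower and 3 higher in 4 of 4 pairs, and a median of -0.12. The immunity-related GTPase gene Iigp1 read 198, 322, 114 and 193 in wild-type and 87.9, 115, 45.7 and 147 in PKBα-/- cells. It was lower in every pair, with the groups overlapping (-1.09, standard error 0.26, limma adjusted p = 0.52), beside -0.84 in DN3 cells (adjusted p = 0.00647). Irgm1, of the same family, read 608 ± 9.93 in wild-type against 486 ± 38.7 in PKBα-/- samples (SD, n = 4), without overlap (-0.33, limma adjusted p = 0.803). H2-K1, a class I chain gene, read -0.35 in 4 of 4 pairs. A probe set shared by the T cell-specific GTPase genes Tgtp1 and Tgtp2 read 1562, 1609, 1082 and 1568 in wild-type and 836, 896, 629 and 1469 in PKBα-/- cells, with pair 4 nearly level (-0.66, limma adjusted p = 0.35). A probe set shared by Ly6c1 and Ly6c2, interferon-responsive surface protein genes, read 456, 784, 394 and 539.7 against 332, 306, 226 and 420.3, lower in each pair (-0.74, adjusted p = 0.532 in limma). The class II gene H2-Aa read -0.71 at one probe set and -0.23 at its brightest (wild-type values of 249.6 to 516). The first of these probe sets read 1.01 in DN3 cells, in the opposite direction (limma adjusted p = 0.972). H2-Eb1 read -1.40, at wild-type values of 91.1 to 177. H2-Aa and H2-Eb1 are also, with H2-Ab1 and Cd74, on the list of dendritic cell and macrophage markers. Of its 18 tested members 17 read lower and 4 were lower at an unadjusted p under 0.05 (2 without pair 2, median -0.29). Of its 22 markers on the array 19 had a mean above 20 in at least 1 of the 2 genotypes. The summed level of that list was 2653 to 4403 in wild-type and 1580 to 3990 in PKBα-/- cells, lower in 2 of 4 pairs, and its part in the interferon values was not tested. Receptors and the JAK-STAT components gave 1 member higher, Irf3 (0.26), and 1 lower, Ptpn2, of 24 (median 0.07).

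Cell cycle genes stood on both sides of 0. ISP8 cells are in rapid division in the thymus. Ccnd2, the cyclin D2 gene that the pre-TCR and growth factors induce, read 1235, 1209, 884 and 1443 in wild-type and 825, 746, 633 and 889.5 in PKBα-/- cells, lower in every pair. Its log2 difference was -0.61 (standard error 0.11, limma adjusted p = 0.242), all 6 further probe sets of the gene read lower, 4 of them at an unadjusted p under 0.05, and the second read 873, 1029, 807 and 894 against 574, 683, 622 and 601, without overlap. Cdkn1a, which encodes the inhibitor p21, read 87.3, 227, 269 and 133 in wild-type and 53.9, 17.5, 87.3 and 3.87 in PKBα-/- cells. Each knockout was lower than its littermate, the highest knockout value came close to the lowest wild-type value, and the knockout values of pairs 2 and 4 were at background (-2.78, standard error 0.59, limma adjusted p = 0.369). Both are DN3-stage transcripts, at 12549.5 ± 833 and 2025 ± 469.6 in wild-type DN3 cells (SD, n = 4). E2f1, a driver of S phase entry, read 406, 277, 471 and 448 against 682, 356, 625 and 591, higher in 4 of 4 pairs (0.48, limma adjusted p = 0.722), and Ccnd3, the cyclin D of later thymocytes, read 0.23 at its brightest probe set. In all, 3 of 27 genes of the G1 phase were higher and 3 lower at an unadjusted p under 0.05 (median 0.03).

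Of 33 mitotic genes, 24 read higher, 5 were higher and 0 lower at an unadjusted p under 0.05, and 8 were higher and 0 lower in 4 of 4 pairs, with a median of 0.10. Espl1, the separase gene, read 2531, 1686, 2181 and 2529.6 in wild-type and 3471, 2549.5, 2321 and 3446 in PKBα-/- cells, with the smallest gap in pair 3 (0.40, limma adjusted p = 0.538). Tpx2, a spindle assembly factor gene, read 2879, 3231, 2786 and 2606 against 3617, 3628, 3578 and 3243, without overlap (0.29, adjusted p = 0.658 in limma). Nusap1 (0.18) and Cdc25b (0.38) were also higher, and the number of higher members was 3 without pair 3 and 1 without the mean-dependent prior. Of 38 DNA replication genes only Fen1 reached an unadjusted p under 0.05 (-0.20), and their median was -0.02 (0.01 with quantile normalization, which turned the majority from lower to higher).

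The lists of biosynthetic genes had medians slightly below 0. Of 24 genes of sterol and fatty acid synthesis, 21 read lower, 3 were lower and 0 higher at an unadjusted p under 0.05, and 8 were lower in 4 of 4 pairs (median -0.13). At that p, 1 was lower without pair 4. They included Hmgcs1, an early enzyme of the mevalonate pathway, at 15891 ± 759.6 in wild-type against 13417 ± 2791 in PKBα-/- samples (SD, n = 4, log2 difference -0.27, limma adjusted p = 0.742), the sterol sensor gene Insig1 (-0.47) and the desaturase gene Scd2 (-0.15). Of 25 genes of glycolysis and nutrient uptake, 20 read lower, with 1 at an unadjusted p under 0.05, Pgd of the pentose phosphate pathway (-0.16, median -0.07). Ribosomal protein genes had no direction that held across scalings: of 24, 20 read lower as deposited (median -0.05), and 11 lower and 13 higher after quantile normalization (median 0.002). At that threshold 2 were lower, Rpl14 at -0.20 and Rps4x at -0.12, and 0 without pair 1, where Rpl14 read -0.12. Of 36 splicing and hnRNP genes, 1 was higher and 1 lower, Ptbp1 and Srsf2. The Ptbp1 value of 1.20 rests on pair 3, since the PKBα-/- values were 1721, 2580.4, 14887 and 2349, and its further probe sets read 0.03 and -0.02. Cytoskeletal genes had 4 of 27 members higher, among them the tubulin genes Tubb2a (0.45), Tubb2b (0.36) and Tubb4b (0.19), and 3 lower, among them Tuba4a (-0.16). Of these, 2 higher and 1 lower were left without pair 1, 1 lower without pair 2 and 2 higher without pair 3.

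**Figure D4:**
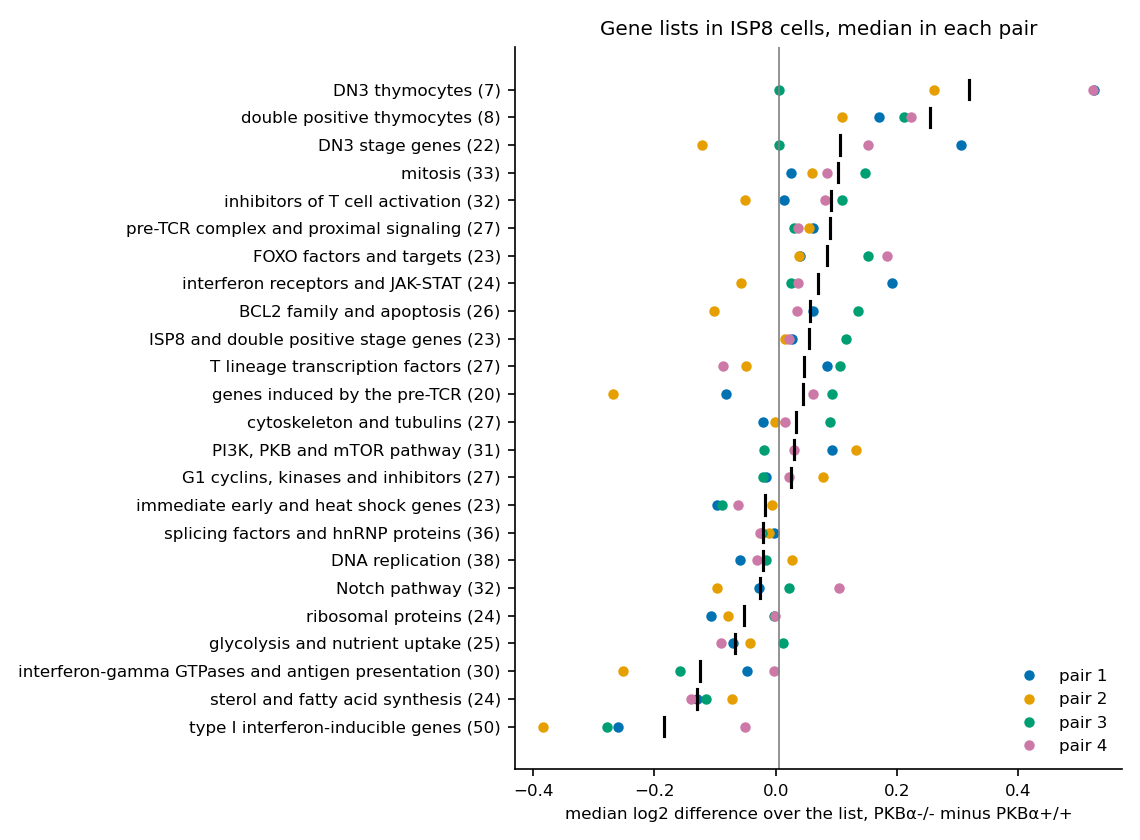
Median difference PKBα-/- minus wild-type on the log2 scale of 24 gene lists in each littermate pair (points), with the median of the mean differences (bar), the number of genes tested in brackets and the median over all genes as a grey line at 0.005. The points of the type I interferon list lie at -0.26, -0.38, -0.28 and -0.05.

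Genes of neighbouring stages and markers of other cells were counted in the same way. Of 22 DN3-stage genes, 5 were higher and 2 lower at an unadjusted p under 0.05 (median 0.11), and the summed level of 8 DN3 marker genes was 22337, 15677, 17328 and 16819 in wild-type and 23676, 18821, 17623 and 19588 in PKBα-/- ISP8 cells. It was higher in 4 of 4 pairs but far from the 50775 to 56669 of wild-type DN3 cells. Genes of the ISP8 and double positive stage had 3 of 23 members higher (5 without pair 1) and 1 lower (median 0.05). Cd8b1 read 1939, 1738, 1779 and 2603 against 2187, 2569, 2147 and 3325, higher in each pair (0.34, limma adjusted p = 0.658), and Rag1, which makes the breaks of V(D)J recombination, read 11229, 10604, 12398 and 10458 against 12612, 14102, 13780.1 and 11876 (0.23, adjusted p = 0.673 in limma). The summed level of the double positive markers was 29487 to 32103 in wild-type and 31708 to 35787 in PKBα-/- cells, again higher in 4 of 4 pairs. Wild-type DN3 cells gave 34900.0 to 39815 for this sum, above wild-type ISP8 cells, so it does not set the double positive stage apart from DN3 cells.

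Among the 10 cell type lists, neutrophil markers had the median farthest from 0. All 8 members above the filter read lower, 5 of them at an unadjusted p under 0.05, with a median log2 difference of -1.84. The filter asks for a value over 20 in 1 animal of a pair, which the wild-type animal alone can supply. The shared direction of these members is therefore not independent of the filter. The sort for ISP8 cells names no antibody to myeloid cells. All 10 neutrophil markers on the array had a mean above 20 in at least 1 of the 2 genotypes. Their summed level was 902, 5026, 250.1 and 655 in wild-type and 166, 259, 341 and 217 in PKBα-/- cells. The wild-type male of pair 2 stood apart at 5026, and in pair 3 the knockout was higher. S100a8, an abundant calcium-binding protein of neutrophils, read 254, 1914, 19.8 and 173 against 13.0, 13.6, 77.9 and 2.11 (-3.95, limma adjusted p = 0.646), and Ngp read 209.7, 1213, 58.4 and 150.4 against 51.5, 50.6, 34.5 and 85.0 (-2.05, adjusted p = 0.532 in limma). Several of the knockout values were at background, which sets the size of these differences. Without pair 2 the list's median was -1.15 and 2 members were lower at an unadjusted p under 0.05, and without pair 3 the median was -2.34, 7 members were lower and 1 passed the adjusted limma test, S100a8. Pair 2 was also the pair with the lowest interferon median, and without it 8 type I interferon-inducible genes were lower at an unadjusted p under 0.05, with a median of -0.20. The part of these cells in the interferon values was not tested. Markers of mature single positive T cells had 3 of 12 members lower (Il7r, Gimap4 at -0.54 and Cd40lg at -1.95, median -0.24). Their summed level was 2855 to 4438 in wild-type ISP8 and 8078 to 10754.5 in wild-type DN3 cells, so the sum does not set mature T cells apart from DN3 cells. NK and innate lymphoid markers had 2 of 13 lower, Klrd1 (-0.98) and Gzma. Gzma, a granule protease gene, stood at 18439.7 ± 1834 in wild-type against 16156 ± 3184 in PKBα-/- samples (SD, n = 4) (-0.21, limma adjusted p = 0.778). It also read high in wild-type DN3 cells, at 12304 ± 1771 (SD, n = 4). B cell markers had 1 of 12 lower (Blnk, -1.0), γδ T cell markers 1 of 7 higher (Blk, 1.06), stromal markers 2 of 22 higher and 3 lower (1 lower without pair 1 or pair 4), and erythroid markers none of 5 in either direction at that threshold.

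**Figure D5:**
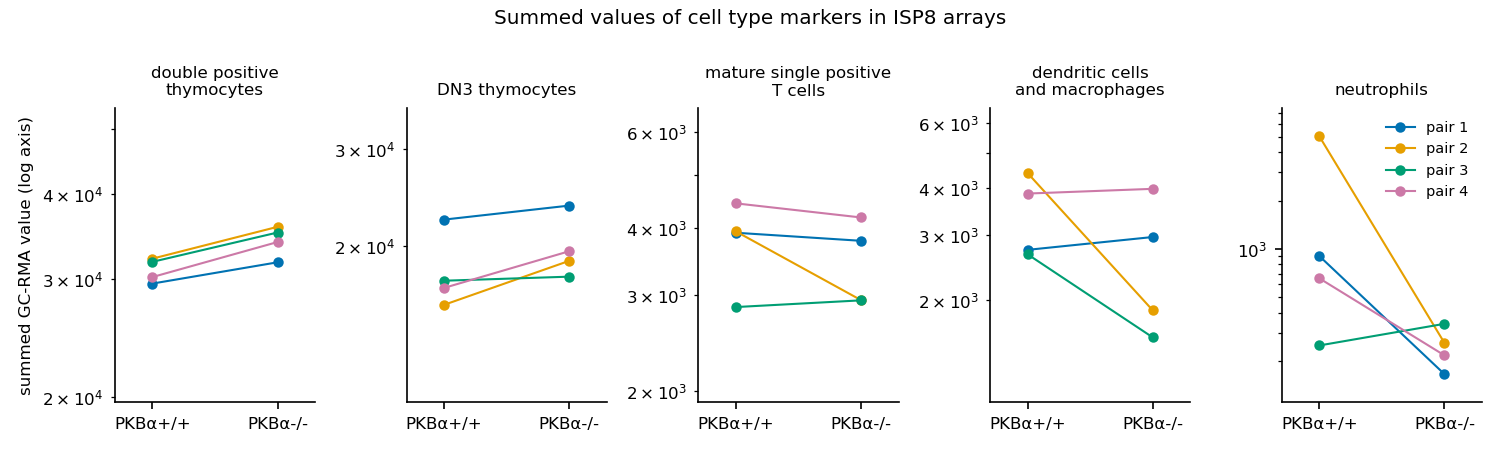
Summed GC-RMA values of 5 lists of cell type markers in each of the 8 ISP8 samples, littermates joined by a line. The wild-type sample of pair 2 stands apart in the neutrophil list at 5026, and the double positive and DN3 sums are higher in the PKBα-/- sample of all 4 pairs.

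Control probe sets at the 3′ and 5′ ends of Actb, which reflect RNA integrity and the length of the amplified product, differed by more in PKBα-/- cells: log2 3′ minus 5′ was 0.24 higher (SD 0.20, n = 4 pairs), in 4 of 4 pairs (two-sided exact sign-flip p = 0.13, the lowest value possible with 4 pairs). For Gapdh it was 0.10 higher (SD 0.38), in 2 of 4 pairs (exact sign-flip p = 0.75), or -0.06 without pair 1. Whether RNA quality had a part in the values above was not tested.

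The study's methods take probe sets with a paired p of at most 0.05 and a shared direction of 1.5-fold or more in 3 or 4 pairs. They also require reliable detection calls, which were not applied here, so the selection below is only a part of the study's rule. By it 521 were taken (1.53% of those tested), 233 higher (0.685%) and 288 lower (0.847%). After Benjamini-Hochberg adjustment that paired test took 0, while 5 passed in limma. Of 55 probe sets that the study lists for ISP8 cells, 32 read higher and 23 lower, 46 of them in 4 of 4 pairs and 9 without overlap of the groups (2.91% of all probe sets tested). The selection above took only 18 of the 55, 13 higher and 5 lower, although it leaves out a requirement of the study's rule. The study's list was thus not reproduced from the deposited values, and the reason was not tested. Tubb3, listed as lower, read -0.21 and was lower in 2 of 4 pairs. By the adjusted limma test 1 of the 55 passed, that of Slc28a2. The log2 differences of the 55 ran from 0.32 to 1.41 among the higher and from -1.03 to -0.05 among the lower ones. The list was chosen on these same samples, so that its direction is not independent evidence.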

How the data were processed

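Per the labels and the methods, ISP8 cells of 4 littermate pairs were sorted, and RNA was amplified in 2 cycles and hybridized to Affymetrix mouse genome 430 2.0 arrays. The authors estimated expression with GC-RMA (named GCRMA in the submitters' notes), which corrects for background and normalizes between arrays, and deposited linear intensity values for 45101 probe sets. Which arrays were normalized together is not given in the sources used here. Detection calls were not used here. The number of arrays limits the precision.

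The deposited values were taken to log2 without a constant. Probe sets for which 3 or more pairs held an animal with a value over 20 were tested in R 4.3.3 (limma 3.58.1), with the littermate pair as a block and a mean-dependent prior (3 residual and 9.88 prior degrees of freedom), Benjamini-Hochberg adjusted at 0.05. The pairs are named in the labels, and deviations of littermates from their group means correlated at 0.0706 to 0.178, against -0.170 to 0.0540 for other animals. Standard errors and p-values of limma combine the spread between these 4 pairs with the prior, which comes from probe sets of similar level. The prior carries more degrees of freedom than the pairs. Where the pairs of a gene differ widely, as for Nrip2, Cdkn1a and Ctla4, the printed standard error is therefore smaller than its own pairs alone would give.

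GEO's platform annotation gave 1 symbol to 34958 probe sets, several to 932 and none to 9211, and some genes are not reported here. For the counts over all genes and the lists, a gene was represented by its probe set with the highest mean. The genes with the smallest p were instead taken at their probe set with the smallest p among those with the same direction in 4 of 4 pairs. Lists (33, Akt1 alone among them, with 682 of 766 genes on the array) are described by counts. Named were all probe sets that passed, the 12 genes per direction with the smallest p in 4 of 4 pairs, the PKB genes, the ISP8 genes the study's text names, up to 4 genes per list and direction at an unadjusted p under 0.05, and defining markers. Members, lists and rule were chosen with earlier results of these data known. Promoters came from RefSeq (GRCm38.p6). The fit was also run on simulated data with normally distributed spread and no background floor, so that run does not test it for genes near background. Alternatives were no filter, a filter at 100, a constant of 20, quantile normalization, no block, no trend, robust moderation, 1 fit of all 16 arrays, the mean of a gene's probe sets and leaving out each pair. Leaving out pairs in DN3 cells was added after the values were seen. Figures used matplotlib 3.10.9 under Python 3.11.15.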

Additional observations from a re-analysis of the deposited data

Results flagged for a closer look

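In groups of 4 samples, 1 value lay apart from the other 3, by Dixon's criterion at the 95% level, in 19 of 234 groups of named genes examined. Chance flags about 1 in 20 groups, 11.7 of these. In wild-type ISP8 cells, Agfg1 read 1725 in pair 4 (2035 to 2078 in the others), Ifi35 2380 in pair 3 (3455 to 3583), Marcks 8152 in pair 1 (8637 to 8735) and Nsmaf 3586 in pair 1 (2378 to 2458). Ptbp1 read 990.2 in pair 2 (1680 to 1847 in the others), Rasgrp1 4274 in pair 4 (3535 to 3651) and Sf3b2 1537 in pair 2 (2013 to 2101). The probe set of Tgtp1 and Tgtp2 read 1082 in pair 3 (1562 to 1609 in the others) and Tmsb4x 4217 in pair 3 (8169 to 9097).

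In PKBα-/- ISP8 cells, Ccng2 read 6807 in pair 2 (5668 to 5742 in the others), Gja1 250.1 in pair 4 (402.0 to 423.7), Irs2 95.5 in pair 1 (172.7 to 182.6) and Lyz1 930.2 in pair 4 (42.06 to 59.37). Ptpn2 read 3731 in pair 4 (7544 to 8078 in the others), Rag2 1568 in pair 1 (2408 to 2557), Rpl14 2774 in pair 1 (3129 to 3178) and S100a9 28.54 in pair 3 (2.237 to 3.385). Tes read 76.69 in pair 2 (131.6 to 143.9 in the others) and Tpx2 3243 in pair 4 (3578 to 3628).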

How the results depend on the processing

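The count of 5 probe sets that passed in ISP8 cells was 3 with no filter, 1 with the filter at 100, 1 without the mean-dependent prior, 14 in 1 fit of all 16 arrays (4 of the 5 among them), and 1 (without pair 1) to 12 (without pair 4) when each pair was left out. Without the replicate block, that is without the littermate pairing, 2 passed. Selection by the study's rule without its detection calls (521) gave 979 with no filter, 79 at a filter of 100 and 0 after adjustment. In DN3 cells, the count of 13 was 12 to 40 with a pair left out. The difference between subsets called 0 under each alternative run. Of 1390 recomputed values of 117 named genes, 1361 kept direction and side of the threshold, 19 no longer passed, 9 newly passed and 1 turned its sign: Cd8a, at -0.0363 without replicate 4 and up to 0.0536 without replicate 1. Several alternatives change the p-value but not the log2 difference. Genes that moved the same way in 4 of 4 pairs cannot turn their sign when a pair is left out. Much of that count was therefore fixed in advance. The Gapdh control ran from -0.0623 without replicate 1 to 0.227 without replicate 2. The brightest Akt1 probe set passed under all alternatives, the second one under 8 of 12. With quantile normalization 4 of 32 lists turned their majority (DNA replication, splicing, immediate early and ribosomal protein genes). Of 428 recomputed list medians, 24 moved by more than the spread between pairs. The causes were not tested. Signal near background limits genes such as Cdkn1a, Fasl and S100a9, whose fold changes depend on values that carry no order.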

Other observations

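Without pair 4, 3 further genes passed that no list holds and that were chosen after their values were seen. Jchain, which encodes the joining chain of secreted immunoglobulins, read 242, 294, 214 and 142 in wild-type and 37.6, 38.8, 67.7 and 356 in PKBα-/- cells of pairs 1 to 4. It was lower in 3 pairs and higher in pair 4, the oldest animals (log2 difference -2.42 without pair 4, limma adjusted p = 0.0244, and -1.49 with all pairs, adjusted p = 0.789). Ezr, which links the membrane to actin, gave -0.98 and Tbca, a tubulin folding factor gene, -1.12 without pair 4 (limma adjusted p = 0.0245 and 0.00175), against -0.46 and -0.42 with all pairs.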
